A study of Mus musculus with 36 samples.

Results

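HP1a-deficient (KO) and wild-type (WT) conventional CD4+ T cells (Tconv) were compared after 3 weeks in bone marrow-grafted hosts that received no regulatory T cells (Treg). The comparison takes the 3 HP1a KO and the 3 HP1a WT Tconv libraries, 6 of the 36 RNA-seq libraries, chosen by the names of their columns and not by any measured value. The mouse study asked how heterochromatin proteins set the response of Tconv to Treg. It sequenced naive CD4+ T cells and grafted Tconv, with or without Treg, from an HP1a line and an HP1g line. In the HP1a line, Cbx5, the gene of HP1a, is deleted in the germ line: a floxed Hp1a allele was crossed with CMV-cre mice, which express Cre in all tissues, and heterozygotes were intercrossed. The WT cells came from sex-matched Hp1a+/+ littermates, and both genotypes share a mixed 129/Sv and C57BL/6 background. Naive CD4+ T cells of either genotype were given to lethally irradiated hosts, either CD45.1+ B6 or C57BL/6 J mice, together with equal parts of B6 and B6D2F1 bone marrow. The cells sequenced were CD4+ spleen cells that carried TCR Vβ6 and had the surface type of the injected donor cells: positive for H-2Kb and CD45.2, negative for H-2Kd, CD45.1 and Thy1.1. All 6 libraries therefore hold sorted cells of this surface type, and the markers alone do not show that every cell had been injected. Groups that served for comparison were the 3 KO and 3 WT libraries of HP1a naive cells, the 3 KO and 3 WT libraries of HP1a Tconv grafted with WT Treg, and the Tconv of the HP1g line, in which Cd4-cre deletes Cbx3 in T cells. The labels do not say whether each replicate is a separate host, so the p-values measure the spread between libraries only.

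HP1 proteins read the methyl mark on lysine 9 of histone H3. Their chromodomain binds the mark, and they bring in enzymes such as SUV39H1 that write more of it, so that heterochromatin spreads and stays compact. Mammals have HP1a, HP1b and HP1g, made from Cbx5, Cbx1 and Cbx3. In CD4+ T cells the SUV39H1 and HP1a pathway is known for silencing Th1 genes in Th2 cells. Vβ6+ T cells were followed because they recognise a viral superantigen that the B6D2F1 cells carry.

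Library totals ran from 37029519 to 62700073 estimated counts. Levels are given as CPM, the count of a gene scaled to a common library size after TMM normalisation. A gene was called when it differed by more than 1 on the log2 scale in either direction and its Benjamini-Hochberg adjusted p from edgeR's quasi-likelihood test was under 0.05. The first principal component, 37.4% of the variance, separated the genotypes and placed KO replicate 3 farthest out, at 59.3 against 15.5 and 21.8 for the other KO libraries. The same library carried the highest levels of macrophage, MHC class II and erythroid markers, described next.

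The targeted gene was lower in every KO library. Cbx5 (chr15:103099505-103148419 on GRCm39) stood at 28.4, 30.2 and 26.1 CPM in WT replicates 1 to 3 and at 15.9, 16.1 and 13.9 CPM in KO replicates 1 to 3. The groups did not overlap, and the KO mean was 0.541 of the WT mean, with a log2 fold change of -0.89 ± 0.11 (SE; edgeR adjusted p = 0.033). The genotypes were also separate in naive cells, at 9.25 to 12.2 CPM in KO against 18.6 to 24.7 in WT, and with Treg, at 15.7 to 19.7 against 34.5 to 61.9. A gene count does not tell transcripts with the deleted exons from those without. The paralogs showed no such gap: the WT and KO libraries overlapped for Cbx1 (HP1b, log2 fold change -0.02 ± 0.09, adjusted p = 0.96) and for Cbx3 (HP1g, 0.12 ± 0.09, adjusted p = 0.717).

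The enzymes and partners of the H3K9 pathway were close to the same level in both genotypes. All 20 genes of this list were tested and none was called. At an unadjusted p under 0.05, which 4.90% of all tested genes reached as higher in KO and 3.63% as lower, 3 of the 20 were higher and 0 lower. They were Resf1 (0.29 on the log2 scale), a partner of SETDB1, Setdb1 itself (0.28), which methylates H3K9, and Kdm3a (0.19), an H3K9 demethylase. The writers Suv39h1 (0.09) and Suv39h2 (-0.06) and the co-repressor Trim28 (0.16) did not reach it. Of 24 germ line, imprinted and X-linked genes that heterochromatin silences in other cells, such as Dazl, Ddx4 and Peg3, only 5 had enough counts for a test. None of these was called, and Xlr3a, the highest (1.45), overlapped between the groups.

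The sorted cells carried the RNA of CD4 T cells. The 10 CD4 T cell markers, including the CD3 chains, Lck and Trac, summed to 8110, 8143 and 8579 CPM in WT and to 7359, 7344 and 7295 CPM in KO. The KO sums were lower in every library. At an unadjusted p under 0.05, 4 of the 10 genes were lower, beside 3.63% of all tested genes, with 0 called. Their log2 fold changes were small, from -0.24 (Lck) to -0.05. Fewer T cells in the sort and less of these RNAs per T cell cannot be told apart in bulk samples.

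Markers of several other blood cells were higher in the HP1a KO than in the HP1a WT Tconv libraries, most of all in KO replicate 3. The 14 macrophage and monocyte markers summed to 18.2, 13.8 and 11.9 CPM in WT and to 102, 30.1 and 541 CPM in KO. The MHC class II genes summed to 81.3, 96.8 and 88.2 CPM in WT and to 211, 124 and 629 CPM in KO. Erythroid markers, mainly the globins, summed to 2.12, 3.14 and 3.55 CPM in WT and to 94.7, 26.7 and 781 CPM in KO. None of these sums overlapped between genotypes. Ratios of the group means were 15.3 for macrophage, 3.62 for MHC class II and 102 for erythroid markers, and without KO replicate 3 they were 4.50, 1.89 and 20.7. Each WT library had 2 of 14 macrophage genes at 0, with Fcgr1 at 0 in all 3, and no KO library had any. The sums over all 14 neutrophil markers overlapped (74.5 to 196 CPM in WT, 42.5 to 148 CPM in KO) and were mostly Mmp9 in WT, which stood at 196, 136 and 74.3 CPM in WT and at 54.7, 40.7 and 76.1 CPM in KO. The other 13, a sum taken after the values of Mmp9 were seen, did not overlap, at 0.272, 0.274 and 0.188 CPM in WT and at 68.5, 1.80 and 72.1 CPM in KO, a ratio of means of 194, or 144 without KO replicate 3. Sums for CD8 or NK markers (152 to 313 CPM in WT, 161 to 210 CPM in KO), B cell markers (5.37 to 19.7 and 6.50 to 13.9), platelet markers (0.163 to 1.02 and 0.620 to 3.59) and Treg markers (22.0 to 44.9 and 23.2 to 44.6) overlapped. High marker sums were not confined to HP1a KO Tconv. In WT Tconv of the HP1g line, macrophage sums were 52.3 to 119 CPM and erythroid sums 78.5 to 5107 CPM. MHC class II sums there were 94.7 to 205 CPM. KO Tconv of that line overlapped with them, at 40.9 to 163, 163 to 3433 and 63.3 to 336 CPM. Erythroid sums in naive HP1a WT cells were 38.4 to 98.3 CPM.

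**Figure D1:**
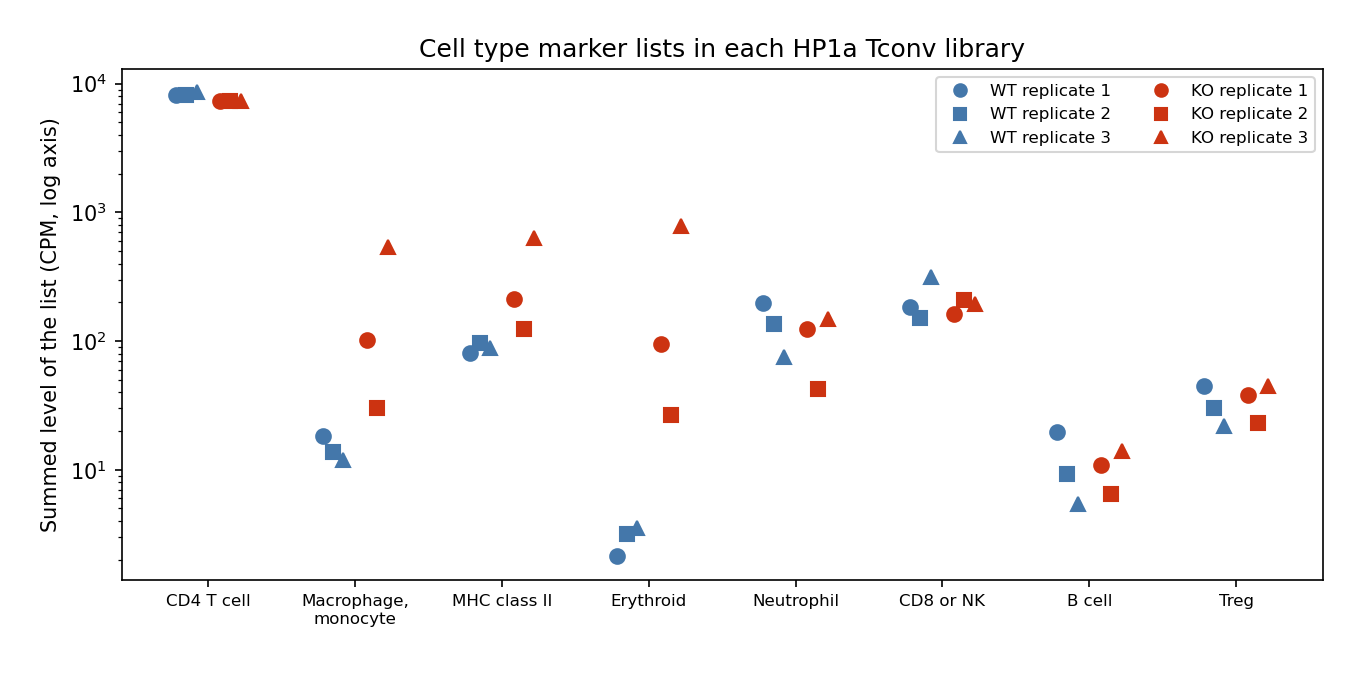
Summed level in CPM (log axis) of each cell type marker list in the 6 HP1a Tconv libraries, with WT replicates in blue and KO replicates in red. The CD4 T cell sums lie between 7295 and 8579 CPM in all libraries, while the macrophage, MHC class II and erythroid sums of every KO library lie above those of the WT libraries, with KO replicate 3 highest. The neutrophil sum of WT is mostly Mmp9.

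Counted gene by gene, 10 of 12 tested macrophage markers, 5 of 7 MHC class II genes and 5 of 6 tested erythroid genes were higher in KO at an unadjusted p under 0.05. The share over all tested genes was 4.90%. None of these markers was called by edgeR. Among the macrophage markers, Mrc1, the mannose receptor, went from at most 0.0272 CPM in WT to 3.41, 0.8995 and 18.9 CPM in KO. The complement gene C1qa lay at 0.272, 0.105 and 0.107 CPM in WT and at 5.46, 0.853 and 28.5 CPM in KO (6.17 ± 1.59, adjusted p = 0.549). H2-Aa, an MHC class II chain, lay at 1.77, 0.379 and 1.77 CPM in WT and at 18.5, 3.18 and 73.8 CPM in KO. In each case KO replicate 2 was the lowest and replicate 3 the highest of the KO libraries. The neutrophil granule gene S100a8 lay at 0.136, 0.148 and 0.0269 CPM in WT and at 16.5, 0.946 and 14.03 CPM in KO. Its partner S100a9 lay at 0.0272, 0.0211 and 0.0537 CPM in WT and at 13.3, 0.738 and 13.5 CPM in KO. For both genes every KO library lay above WT, with replicate 2 the lowest, and 11 of the 14 neutrophil markers were too low to test. The part of these other cells' RNA in the differences reported below was not tested.

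Between the genotypes, 16 of 15521 tested genes were called by edgeR, 0.103% of those tested: 12 were higher in KO (0.0773%) and 4 lower (0.0258%). Without the fold threshold, 19 genes passed (0.122%). At an unadjusted p under 0.05, 1324 genes (8.53%) differed. The KO libraries all lay above the WT libraries for 7.11% of the genes and all below for 7.97%. The called genes were of 4 kinds: protein-coding genes (Slc15a2, Cxcr4, Cd8a and Capn11 higher, Camk2b lower), T cell receptor alpha variable (TRAV) segments (Trav11, Trav6n-7 and Trav15-2-dv6-2 higher, Trav6d-7 lower), processed pseudogenes of ribosomal proteins (Rps7-ps3 higher, Rpl35a-ps3 lower), and noncoding or unclassified transcripts (1700030C10Rik, Gm43305, ENSMUSG00000120777 and ENSMUSG00002076650 higher, Gm42566 lower). Slc15a2, 1700030C10Rik, Rps7-ps3 and Trav11 remained called whichever of the 6 libraries was left out. The call of each of the other 12 was lost without WT replicate 1, 2 or 3 in turn, and the number of called genes was 5, 4, 4 and 7 in the fits without WT replicate 1, 2 and 3 and KO replicate 3. Without KO replicate 1 or 2, the totals were 20 and 22.

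**Figure D2:**
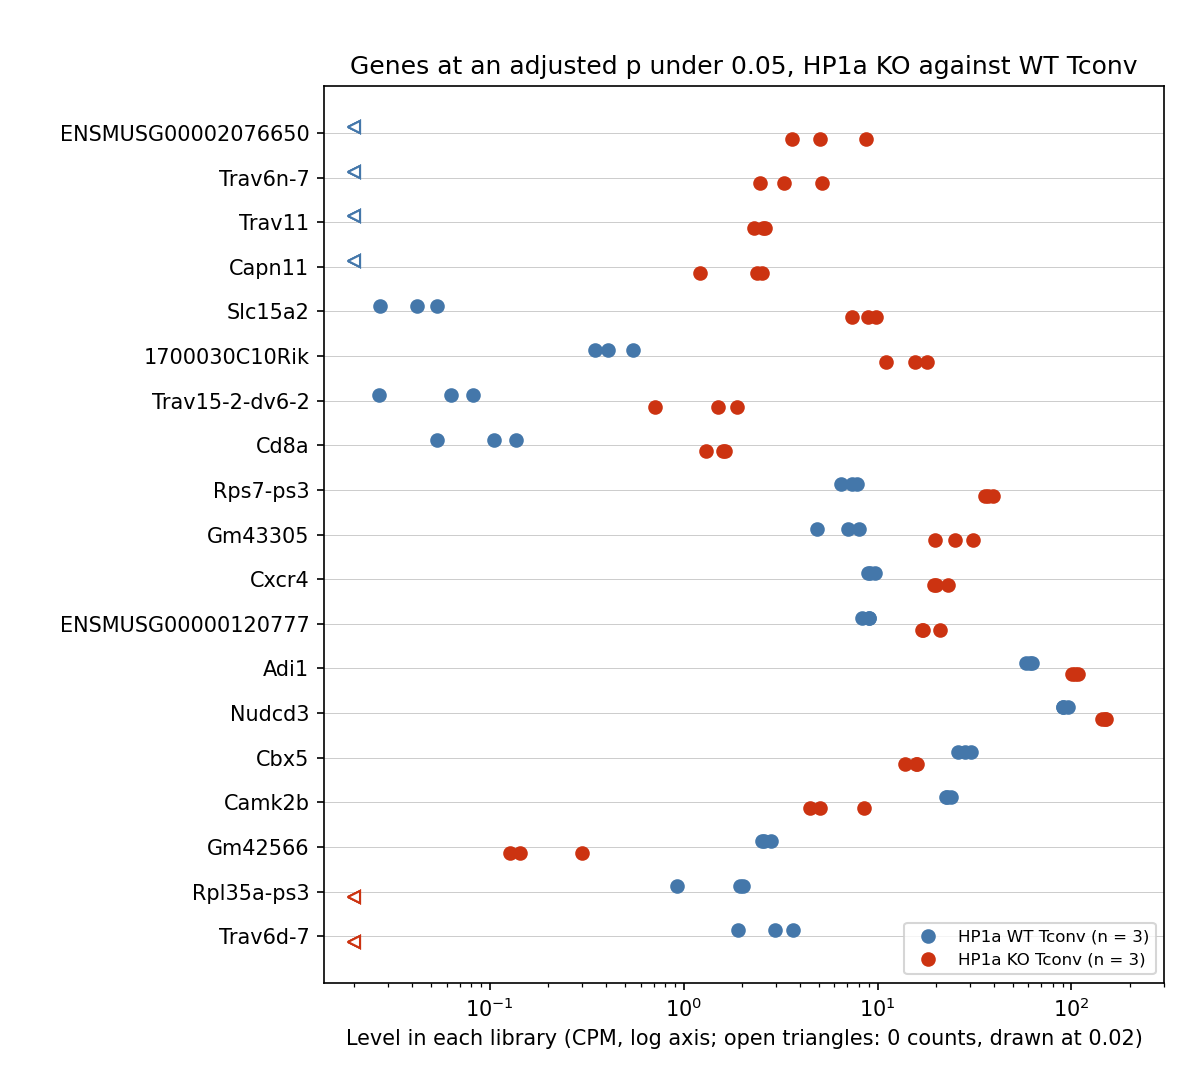
Level in CPM (log axis) of the 19 genes at an adjusted p under 0.05 in each of the 3 HP1a WT (blue) and 3 HP1a KO (red) Tconv libraries, with open triangles for libraries at 0 counts. The WT and KO points do not overlap for any of the 19 genes, and Slc15a2 and 1700030C10Rik show wide gaps between groups that both have counts.

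The peptide transporter gene Slc15a2, which encodes PEPT2, had the widest gap among the called genes with counts in both groups. It lay at 0.0272, 0.0422 and 0.0537 CPM in WT and at 8.94, 9.87 and 7.36 CPM in KO. In counts, 5 reads in the WT libraries stood against 1266 in the KO libraries, a normalised ratio of 207 (95% exact interval 88.7 to 640, counting error only). The fitted log2 fold change was 7.64 ± 0.32 (edgeR adjusted p = 0.00012). A lncRNA, ENSMUSG00000120777 (chr16:36585467-36590580), lies on the same strand within Slc15a2 (chr16:36570475-36605334), and reads over shared stretches cannot be assigned with certainty. It stood at 9.03, 9.06 and 8.27 CPM in WT and at 21.1, 17.02 and 17.2 CPM in KO, a log2 fold change of 1.07 ± 0.13 (adjusted p = 0.033). In the WT libraries, reads were thus counted for this lncRNA and almost none for Slc15a2. The call of the lncRNA was lost whichever of the 6 libraries was omitted, with values from 0.96 to 1.12. No other tested gene within 1 Mb of Slc15a2 passed an unadjusted p under 0.05.

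Cxcr4, the receptor for the chemokine CXCL12 that guides cells to bone marrow, was 2.25-fold higher in KO. It measured 8.95, 9.72 and 9.10 CPM in WT and 19.5, 20.04 and 23.1 CPM in KO (1.17 ± 0.12, adjusted p = 0.014), with little spread in either group. Its call was lost without any WT library and without KO replicate 3, with values between 1.09 and 1.22. The chemokine receptors as a list were mixed: of 21 tested, only Cxcr4 was called. At an unadjusted p, 3 with Cxcr4 included were higher and 2 lower, beside 4.90% and 3.63% of all genes. Ccr2 (-0.37) and Cxcr3 (-0.36), which draw cells into inflamed tissue, were lower at an unadjusted p, and Ccr7 (0.58) and Ccr3 (2.56) higher.

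Camk2b, a calcium and calmodulin-dependent kinase subunit, was the only called protein-coding gene that was lower. It lay at 22.7, 24.0 and 22.6 CPM in WT and at 8.56, 4.47 and 5.04 CPM in KO, a log2 fold change of -1.94 ± 0.24 (adjusted p = 0.041). The call was lost without any WT library and without KO replicate 2 or 3, over a range of -2.28 to -1.77. Of 16 tested kinases and regulators of this family it was the only one called. Its inhibitor Camk2n1 was lower at an unadjusted p (-0.77), and Camk2d, which makes the delta subunit, higher (0.21). Next to Camk2b on chromosome 11, with a gap of 39.3 kb, lies Nudcd3, a chaperone gene, which went the other way. Nudcd3 stood at 96.1, 90.5 and 90.1 CPM in WT and at 149, 144 and 151 CPM in KO (0.68 ± 0.06, adjusted p = 0.0091), below the fold threshold.

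Cd8a and Capn11 were low in both groups. Cd8a, the CD8 alpha chain, had 12 reads in the WT libraries and 227 in the KO libraries, or 0.136, 0.105 and 0.0537 CPM against 1.31, 1.59 and 1.64 CPM (3.91 ± 0.42, adjusted p = 0.017). The normalised count ratio was 15.5 (8.70 to 30.4). Cd8b1, its partner in the CD8 dimer of cytotoxic T cells, did not differ in the same way (0.12 on the log2 scale), and the CD8 and NK marker sums overlapped. Capn11, a calpain known from testis, had 0 reads in all WT libraries and 1.22, 2.40 and 2.54 CPM in KO, at least 83.1-fold higher against a floor of 3 counts over the group (adjusted p = 0.027). The calls of both were lost without any WT library and without KO replicate 2 or 3, with log2 fold changes of 3.63 to 4.18 for Cd8a and 9.23 to 9.82 for Capn11.

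TRAV segments are the V genes of the T cell receptor alpha chain, of which each T cell expresses mostly a single rearranged copy. The mouse locus carries duplicated blocks, so that segments marked d or n repeat an original nearly base for base. The V exons here were read from the GRCm39 genome at the positions of the annotated genes. They are shown because their likeness decides what a count of a single copy can mean. Capitals in Trav6-7-dv9 mark the 6 bases that differ from Trav6d-7, the capital in Trav11 marks the last base, absent from the annotated exon of Trav11d, and capitals in Trav15-2-dv6-2 mark 6 bases that differ from Trav15d-2-dv6d-2, from which it also lacks 3 bases.

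Trav6d-7 and Trav6n-7: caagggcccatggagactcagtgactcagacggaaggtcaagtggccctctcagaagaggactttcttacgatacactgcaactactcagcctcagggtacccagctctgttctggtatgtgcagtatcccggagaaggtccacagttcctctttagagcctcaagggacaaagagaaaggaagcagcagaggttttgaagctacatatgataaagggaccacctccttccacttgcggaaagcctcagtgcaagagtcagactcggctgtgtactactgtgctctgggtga
Trav6-7-dv9: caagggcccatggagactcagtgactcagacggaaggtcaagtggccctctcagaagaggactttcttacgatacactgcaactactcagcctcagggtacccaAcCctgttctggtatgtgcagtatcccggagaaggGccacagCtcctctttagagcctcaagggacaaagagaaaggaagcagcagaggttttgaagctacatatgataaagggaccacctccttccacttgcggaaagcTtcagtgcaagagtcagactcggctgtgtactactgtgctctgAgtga
Trav11: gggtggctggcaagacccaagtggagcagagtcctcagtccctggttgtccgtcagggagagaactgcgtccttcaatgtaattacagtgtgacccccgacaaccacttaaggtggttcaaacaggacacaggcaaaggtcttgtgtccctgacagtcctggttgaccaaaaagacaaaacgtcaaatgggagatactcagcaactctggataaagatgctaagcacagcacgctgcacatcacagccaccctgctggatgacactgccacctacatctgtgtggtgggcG
Trav15-2-dv6-2: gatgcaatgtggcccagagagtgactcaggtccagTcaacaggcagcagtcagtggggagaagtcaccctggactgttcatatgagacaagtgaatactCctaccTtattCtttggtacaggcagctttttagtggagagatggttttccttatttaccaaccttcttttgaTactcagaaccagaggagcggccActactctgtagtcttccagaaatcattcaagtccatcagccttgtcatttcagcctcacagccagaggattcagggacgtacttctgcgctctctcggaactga

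All lie on the plus strand of chromosome 14. The V exon of Trav6d-7 is at chr14:53245264-53245555 and that of Trav6n-7 at chr14:53556450-53556741. Those of Trav6-7-dv9, Trav11 and Trav15-2-dv6-2 are at chr14:53947585-53947876, chr14:53757026-53757316 and chr14:53887152-53887451. Trav6d-7 and Trav6n-7 have 0 differing bases over the 487 bases of the gene, so no read within them can tell the copies apart. Trav11 and Trav11d differ by the 1 base of annotated exon length.

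The libraries put these reads on different copies in the different genotypes. Trav6d-7 stood at 2.97, 3.65 and 1.91 CPM in WT and had 0 reads in all KO libraries (353 reads against 0, at least 140-fold lower, adjusted p = 0.014). Its identical copy Trav6n-7 had 0 reads in all WT libraries and stood at 3.29, 2.49 and 5.18 CPM in KO (at least 148-fold higher, adjusted p = 0.014). Summed over both copies, the groups overlapped, and the log2 fold change was 0.37 ± 0.34 (adjusted p = 0.783). The other HP1a groups also put the reads on varying copies, for instance Trav6d-7 at 6.36, 0 and 4.47 CPM in WT Tconv with Treg and at 5.31, 0 and 1.51 CPM in naive KO cells.

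Trav11 and Trav11d behaved in the same manner. Trav11 had 0 reads in WT and 2.62, 2.58 and 2.32 CPM in KO (at least 102-fold higher, adjusted p = 0.0090), while Trav11d stood at 1.77, 4.17 and 0.537 CPM in WT and had 0 reads in KO. Their sum gave a log2 fold change of 0.21 ± 0.63 (adjusted p = 0.936). Trav15-2-dv6-2 differed from this. It had 7 reads in WT and 205 in KO, at 0.0816, 0.0632 and 0.0269 CPM against 1.88, 0.715 and 1.51 CPM (ratio 24.0, 11.4 to 60.4, adjusted p = 0.041), and with its copies Trav15d-2-dv6d-2 and Trav15n-2 added the KO libraries still lay above the WT libraries, at 0.8995 to 2.10 against 0.190 to 0.316 CPM. Its call was lost without any WT library and without KO replicate 1 or 3, with values of 4.21 to 4.82.

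Over all TRAV genes, 117 had counts and 86 were tested, of which 3 were called higher and 1 lower. At an unadjusted p, 10 were higher and 11 lower, beside 4.90% and 3.63% of all genes, with a median log2 fold change of -0.08. The summed TRAV level was 285 ± 28.8 CPM in WT and 252 ± 40.9 CPM in KO (SD, n = 3), so the groups overlapped. With the copies of Trav6-7 and Trav11 summed before the fit, 13 genes were called in all. Calls of Trav6d-7 and Trav6n-7 on their own were lost without any WT library, with log2 fold changes of -10.3 to -9.76 and 9.90 to 10.6.

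A ribosomal pseudogene had the smallest standard error of the called genes. Rps7-ps3 (chrX:151692535-151693116), a copy of Rps7 with 99.48% identity over 582 bases, stood at 7.86, 7.36 and 6.47 CPM in WT and at 39.3, 37.0 and 35.7 CPM in KO. This was 5.16-fold higher (2.37 ± 0.11, adjusted p = 0.00016). Rps7 itself, a protein of the small ribosomal subunit, was far more abundant and overlapped, at 381, 444 and 398 CPM in WT and 409, 384 and 368 CPM in KO. Their sum was 1.02-fold in KO. Across the 35 libraries the study kept, Rps7-ps3 exceeded 30 CPM in 8, namely the 6 grafted HP1a KO libraries, with or without Treg, and 2 of the 3 naive HP1a WT libraries (34.0 to 75.1 CPM). The other 27 lay between 3.57 and 24.3 CPM, among them all 3 naive HP1a KO libraries, so the level did not follow the genotype across conditions.

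Adi1, an enzyme of methionine salvage, lies 38.9 kb from Rps7 on chromosome 12 and was also higher in KO. It stood at 62.4, 61.2 and 58.1 CPM in WT and at 108, 104 and 101 CPM in KO (0.79 ± 0.06, adjusted p = 0.0062), under the fold threshold but far beyond the spread of either group. Adi1 also lay high in the same 2 naive WT libraries that were high in Rps7-ps3: 142 and 136 CPM in naive WT replicates 1 and 3 against 88.8 in replicate 2. In the other direction, Rpl35a-ps3, which differs from Rpl35a by 1 base over 333, stood at 0.925, 2.02 and 1.96 CPM in WT and had 0 reads in KO (at least 80.8-fold lower, adjusted p = 0.033). The sum of Rpl35a and its copy was 0.995-fold in KO. Its call was lost without any WT library and without KO replicate 3 (-9.54 to -9.01), and it was at 0 in all 6 Tconv libraries of the HP1g line.

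Among the noncoding genes other than the pseudogene, 1700030C10Rik (ENSMUSG00000099759, chr12:20854368-20865839) had the smallest adjusted p. It stood at 0.408, 0.548 and 0.349 CPM in WT and at 18.05, 15.6 and 11.1 CPM in KO, 34.3-fold higher (5.08 ± 0.28, adjusted p = 0.00036). An overlapping gene of the same symbol was higher at an unadjusted p too (4.01), as were 3 further neighbours, Zfp125 (0.28), Gm30124 (1.34) and the lncRNA Gm49700. Thus 4 of 14 tested genes within 1 Mb differed, all higher, and 28.6% compares with 8.53% of all genes. Of these 4, the gene of the same symbol overlaps 1700030C10Rik, so reads of the 2 genes cannot be assigned with certainty. Gm42566, an unclassified transcript on chromosome 5, stood at 2.61, 2.82 and 2.52 CPM in WT and at 0.143, 0.300 and 0.127 CPM in KO, 13.97-fold lower (-3.80 ± 0.40, adjusted p = 0.015). Gm43305, a lncRNA within 1 Mb of Trac, stood at 7.9998, 7.08 and 4.89 CPM in WT and at 19.8, 25.0 and 31.2 CPM in KO (1.93 ± 0.23, adjusted p = 0.033). ENSMUSG00002076650, a snoRNA (chr11:87334063-87334278) inside Tex14 that overlaps Snord3b1, had 0 reads in WT and 8.70, 5.07 and 3.62 CPM in KO (at least 235-fold higher, adjusted p = 0.015). With Treg this snoRNA stood at 3.42, 0 and 8.78 CPM in WT and at 2.65, 6.36 and 4.56 CPM in KO, with overlap. In Tconv of the HP1g line it stood at 4.62, 4.16 and 0 CPM in WT and at 0, 3.93 and 0 CPM in KO. Calls of the last 3 were lost without any WT library, and besides without KO replicate 3 for Gm42566 (-4.28 to -3.56), without KO replicate 2 or 3 for Gm43305 (1.75 to 2.08), and without KO replicate 2 for the snoRNA (10.6 to 11.2).

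Around Cbx5 itself, no gene within 5 Mb was called. At an unadjusted p, 12 of 102 tested genes in that window differed (11.8%, beside 8.53% of all genes), with 6 higher and 6 lower. The higher ones were Rarg, Nckap5l, Gpd1, Dip2b, Kmt2d and Atf7, from 0.20 (Kmt2d) to 2.84 (Gpd1) on the log2 scale. The lower ones were Aaas, Tns2, Atg101, Pcbp2, Copz1 and Tuba1a, from -0.98 (Tns2) to -0.18. Hnrnpa1, which overlaps the start of Cbx5, did not reach it (-0.06).

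Ifng, Cxcr3 and Tbx21, leading genes of the Th1 programme, were abundant in both genotypes, and no Th1 gene was called. Of 18 core Th1 genes, 4 were lower and 1 higher at an unadjusted p, beside 3.63% and 4.90% of all genes, and 15 had a negative log2 fold change. The median was -0.19, beside 0.0019 for all genes. It was -0.17 for the 10 CD4 T cell markers, which were all negative. Ifng, the cytokine of Th1 cells, stood at 467, 349 and 448 CPM in WT and at 283, 252 and 255 CPM in KO, without overlap (-0.68 ± 0.12, adjusted p = 0.185). Cxcr3, the receptor that takes Th1 cells into tissue, stood at 472, 440 and 486 CPM in WT and at 342, 378 and 370 CPM in KO (-0.36 ± 0.07, adjusted p = 0.341). Il12rb2, a chain of the IL-12 receptor, stood at 25.0, 21.9 and 27.4 CPM in WT and at 18.6, 16.2 and 17.9 CPM in KO (-0.49 ± 0.12, adjusted p = 0.468). All KO libraries lay below all WT libraries for these 3 genes. Tbx21, the master regulator T-bet, was closer, at 230, 197 and 262 CPM against 160, 195 and 179 CPM (-0.36 ± 0.12, adjusted p = 0.549). Txk, a kinase that promotes Ifng expression, was the gene in the other direction, at 60.2, 60.2 and 66.6 CPM against 83.1, 74.5 and 77.7 CPM (0.33 ± 0.08, adjusted p = 0.456).

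A list of Th1 genes that the study had curated, with a reference for each gene, had 75 members. Whether its genes were picked without knowledge of these data is not stated. Of 70 tested, 0 were called, 14 were lower and 2 higher at an unadjusted p, beside 3.63% and 4.90% of all genes. Besides the genes above it held Tnf, Gadd45g, Anxa1, P2rx7, Slc3a2, Klrc1, Mmp9, Hopx, Ms4a4b and Ifitm3 on the lower side, and Slc11a1 (5.46), an ion transporter of macrophage phagosomes, with Abl1 (0.26) on the higher side. The study's list of 104 exhaustion genes, curated in the same way and with the same limit, gave 4 higher and 4 lower of 95 tested, with a median of 0.0056.

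Other effector genes were mixed. Of 23 effector cytokine genes tested, 3 were lower and 1 higher at an unadjusted p, beside 3.63% and 4.90% of all genes. Ltb, lymphotoxin beta, stood at 687, 657 and 663 CPM in WT and at 527, 504 and 509 CPM in KO (-0.38 ± 0.06, adjusted p = 0.136), with a small spread in both groups. Tnf stood at 96.2, 86.4 and 79.4 CPM in WT and at 77.8, 53.1 and 55.9 CPM in KO (-0.49 ± 0.15, adjusted p = 0.549). Tnfsf8, the CD30 ligand, was on the higher side (0.50), and Il2, the growth factor of activated T cells, overlapped (0.02, adjusted p = 0.985). Among the cytotoxic granule genes, Ctsw (-0.67) and Tnfsf10 (-0.29) were lower at an unadjusted p of 13 tested.

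The differences of Il17a and Ccr6, genes of Th17 cells, rested on a single library. None of 18 Th17 and 11 Th2 genes tested passed an unadjusted p under 0.05. Il17a, the Th17 cytokine, stood at 1.69, 4.15 and 1.56 CPM in WT and at 28.4, 1.66 and 1.21 CPM in KO. Ccr6, a receptor of Th17 cells, stood at 4.82, 8.05 and 4.92 CPM in WT and at 35.3, 7.45 and 3.91 CPM in KO. KO replicate 1 alone was high in both genes. Without it the log2 fold changes turned negative, from 2.07 to -0.79 for Il17a and from 1.39 to -0.07 for Ccr6.

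**Figure D3:**
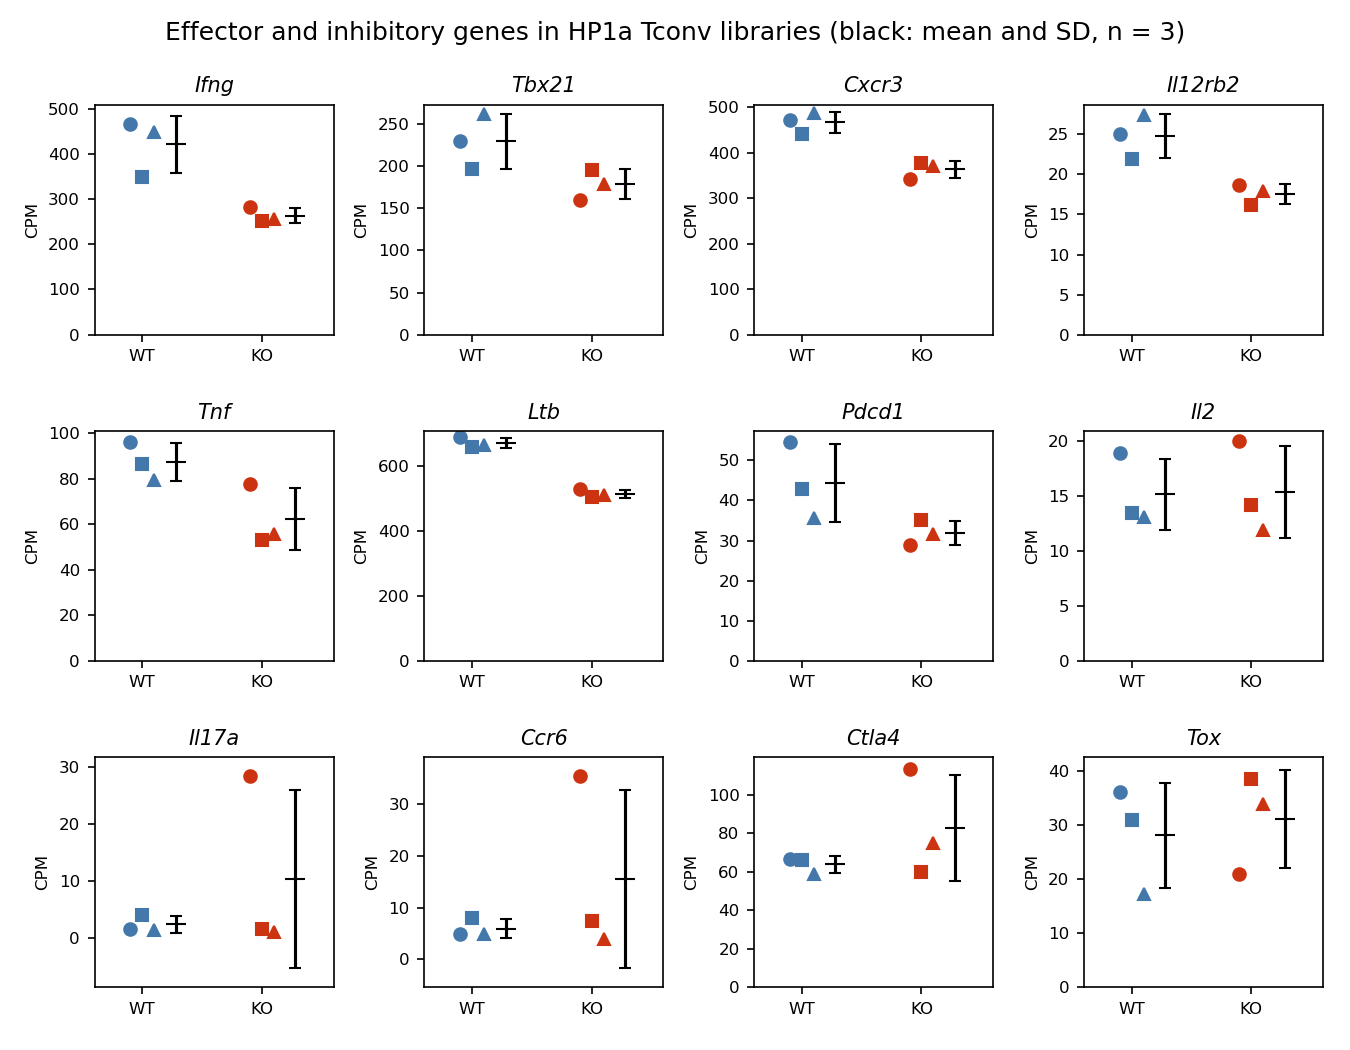
Level in CPM of 12 effector, lineage and inhibitory genes in the 3 HP1a WT (blue) and 3 HP1a KO (red) Tconv libraries, replicates 1 to 3 as circle, square and triangle, with mean and SD in black. The groups do not overlap for Ifng, Tbx21, Cxcr3, Il12rb2, Tnf, Ltb and Pdcd1, with KO lower, and none of the 12 was called. KO replicate 1 stands apart for Il17a and Ccr6.

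Genes of naive and memory cells tended the other way. Of 24 tested, 6 were higher in KO and 1 lower at an unadjusted p, beside 4.90% and 3.63% of all genes. The median was 0.16. Ly6c2, a surface protein of memory T cells, stood at 254, 328 and 346 CPM in WT and at 409, 505 and 469 CPM in KO (0.58 ± 0.13, adjusted p = 0.456). Bach2, a repressor that holds back effector genes, stood at 10.9, 9.84 and 9.78 CPM in WT and at 16.5, 12.8 and 14.2 CPM in KO (0.51 ± 0.14, adjusted p = 0.549). The lymph node homing receptor Ccr7 (0.58), the growth regulator Slfn5 (0.34) and Foxp1 (0.25), which keeps T cells quiescent, were also on the higher side, and Slfn2 (-0.17) was the lower gene. No member of the list was called.

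Receptor signalling and inhibition genes differed by small amounts. Over all tested genes, 4.90% were higher and 3.63% lower at an unadjusted p under 0.05. Of 25 TCR signalling genes, 5 were lower at an unadjusted p (Lck, Cd3g, Cd3d, Lat and Zap70, from -0.24 to -0.16) and 2 higher (Nfatc2 0.21, and Cblb 0.42, a ubiquitin ligase that restrains the receptor). These lower genes overlap the CD4 T cell marker list described above. Of 15 inhibitory receptors, 3 were lower. Pdcd1, the gene of PD-1, stood at 54.7, 42.8 and 35.6 CPM in WT and at 29.0, 35.0 and 31.7 CPM in KO (-0.47 ± 0.16, adjusted p = 0.549). Cd200r1 (-0.31) and Lair1 (-0.26) were the others, while Ctla4 (0.38), Lag3 (-0.28) and Tox (0.15) overlapped.

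Proliferation genes were even. All 36 mitosis and replication genes were tested and 0 passed an unadjusted p under 0.05, with log2 fold changes from -0.18 (Cdt1) to 0.18. Over all tested genes, 4.90% were higher and 3.63% lower at that threshold. At an unadjusted p, higher and lower counts were 0 and 1 of 21 for glycolysis (Slc2a3, the glucose transporter GLUT3, -0.35), 0 and 1 of 16 for interferon-inducible GTPases (Igtp, -0.23), 0 and 2 of 26 for type I interferon-stimulated genes (Bst2, -0.25, and Ifitm3, -0.65), 2 and 0 of 23 for lipid synthesis (Fasn, 0.44, and Scd1, 3.48, at most 0.554 CPM), and 3 and 1 of 15 for integrins, where Itgam (0.67), Itgb3 (0.40) and Itgav (0.31) were higher and Itga1 (-0.56) lower. Immediate early and stress genes gave 1 and 3 of 28, led by Dusp2 (-0.58), a phosphatase induced by activation. BCL2 family, NR4A and EGR, and Treg genes gave 0 and 0 of 15, 6 and 12. The other lists were cytokine receptors (1 and 0 of 26), costimulation (1 and 0 of 20), follicular helper (0 and 1 of 11), TGF-beta (1 and 0 of 13), and stress response and amino acid genes (2 and 2 of 21, with Slc15a2 the only called gene of all the lists in this paragraph).

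DESeq2, the tool of the study, called more genes on the same counts: 207 of 18590 (1.11%), 182 higher (0.979%) and 25 lower (0.134%). All 16 genes that edgeR called were among them. Of the 182 higher genes, 161 were highest in KO replicate 3. Their median level was 0.0816, 0.0632 and 0.0537 CPM in the WT libraries and 1.17, 0.415 and 4.19 CPM in the KO libraries. Among them, the globin gene Hbb-bs stood at 0.680, 1.39 and 1.32 CPM in WT and at 41.1, 10.7 and 324 CPM in KO. Sirpa, a receptor of macrophages, stood at 0.299, 0.190 and 0.349 CPM in WT and at 8.49, 1.80 and 51.4 CPM in KO. In the marker lists, 9 of the 182 were macrophage, 6 erythroid, 3 MHC class II, 2 neutrophil and 1 CD8 or NK genes. Without KO replicate 3 DESeq2 called 94 genes, and 58 of the 182 were still called higher. Without WT replicate 3 it called 135.

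Lower genes in DESeq2 were fewer and more abundant, with median levels of 3.54, 3.86 and 3.09 CPM in WT. Plac8 stood at 175, 121 and 216 CPM in WT and at 88.9, 66.9 and 99.8 CPM in KO (edgeR -1.001 ± 0.25, adjusted p = 0.549). Adgrg3, an adhesion receptor, stood at 21.9, 19.9 and 26.0 CPM in WT and at 14.4, 5.60 and 11.7 CPM in KO. Scart1, a scavenger receptor known from gamma delta T cells, stood at 8.98, 10.9 and 19.5 CPM in WT and at 7.99, 4.15 and 4.80 CPM in KO. None of these groups overlapped, and 18 of the 25 were still called lower without KO replicate 3. TRAV genes made up 8 of the higher and 8 of the lower calls.

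The called genes were then read in libraries that had no part in choosing them. In HP1a Tconv with Treg, 11 of the 12 genes called higher were tested, with 9 positive and 2 negative log2 fold changes and a median of 1.89, and all 4 genes called lower were negative, with a median of -1.43. The median of all genes there was -0.01. The marker sums of macrophage, erythroid and neutrophil genes also separated KO from WT in these libraries, as given with the Treg comparison. MHC class II sums did not. Of the genes called without Treg, only Slc15a2 was called there, in a comparison with 20 of 16256 genes called (0.123%). In naive cells, where 0 of 15549 genes were called (0%; 291 at an unadjusted p), 10 of the 12 were tested, with 2 positive and 8 negative values and a median of -0.55. In Tconv of the HP1g line, with 7 of 16015 genes called (0.0437%), 9 were tested, with 5 positive and 4 negative values and a median of 0.02.

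The KO effect on Slc15a2 differed between grafted and naive cells. In naive cells it stood at 15.2, 17.3 and 11.1 CPM in WT and at 15.3, 5.11 and 4.21 CPM in KO. In Tconv with Treg it stood at 0.489, 1.11 and 0.467 CPM in WT and at 15.02, 10.8 and 11.3 CPM in KO. Both naive groups thus had counts for Slc15a2, and the WT libraries of both grafted groups had few. A test of the KO effect in Tconv minus that in naive cells called Slc15a2 as 1 of 17038 genes (0.00587%), at 8.46 ± 0.78 on the log2 scale (edgeR adjusted p = 0.0032). The number called was 0 without WT Tconv replicate 2, where Slc15a2 lost its call, and at most 6 in the other 11 fits that left out a library. WT cells of the HP1g line were not alike, at 0.141, 6.53 and 7.496 CPM in Tconv and at 6.26, 6.73 and 0 CPM in naive cells.

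The 1700030C10Rik libraries of KO lay above those of WT in all 3 HP1a conditions. In naive cells it stood at 1.16, 1.02 and 1.92 CPM in WT and at 9.13, 13.4 and 12.1 CPM in KO (3.07, adjusted p = 0.116). In Tconv with Treg it stood at 0.254, 0.0871 and 0.727 CPM in WT and at 13.9, 11.9 and 9.19 CPM in KO (5.02, adjusted p = 0.064). In the HP1g line the KO Tconv also lay above the WT Tconv, at 2.52, 1.34 and 1.35 CPM against 0.322, 0.181 and 0.0623 CPM (3.20, adjusted p = 0.201). The groups did not overlap in any of these comparisons, although none was called.

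Gm42566 lay lower in KO in the same 3 conditions, at 0.136 to 1.14 CPM against 2.13 to 4.13 CPM in naive cells and at 0.174 to 0.410 CPM against 2.87 to 7.22 CPM with Treg. Capn11, Adi1 and Nudcd3 separated the genotypes in grafted cells with and without Treg, and overlapped in naive cells. Cxcr4 did not separate them elsewhere: with Treg it stood at 23.1, 34.8 and 44.2 CPM in WT and at 21.7, 27.8 and 23.7 CPM in KO. Camk2b overlapped with Treg, at 8.05 to 22.8 CPM in WT and 2.26 to 14.8 CPM in KO, and in naive cells as well (2.66 to 5.92 CPM in WT and 3.43 to 5.30 CPM in KO). In WT cells of the HP1g line, where 2371 of 15812 genes were called higher in Tconv than in naive cells (15.0%) and 1352 lower (8.55%), Camk2b (2.60) and Gm43305 (2.19) were called higher, and Gm42566 (-2.50), 1700030C10Rik (-2.60), Rps7-ps3 (-1.51) and ENSMUSG00000120777 (-1.38) were called lower.

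**Figure D4:**
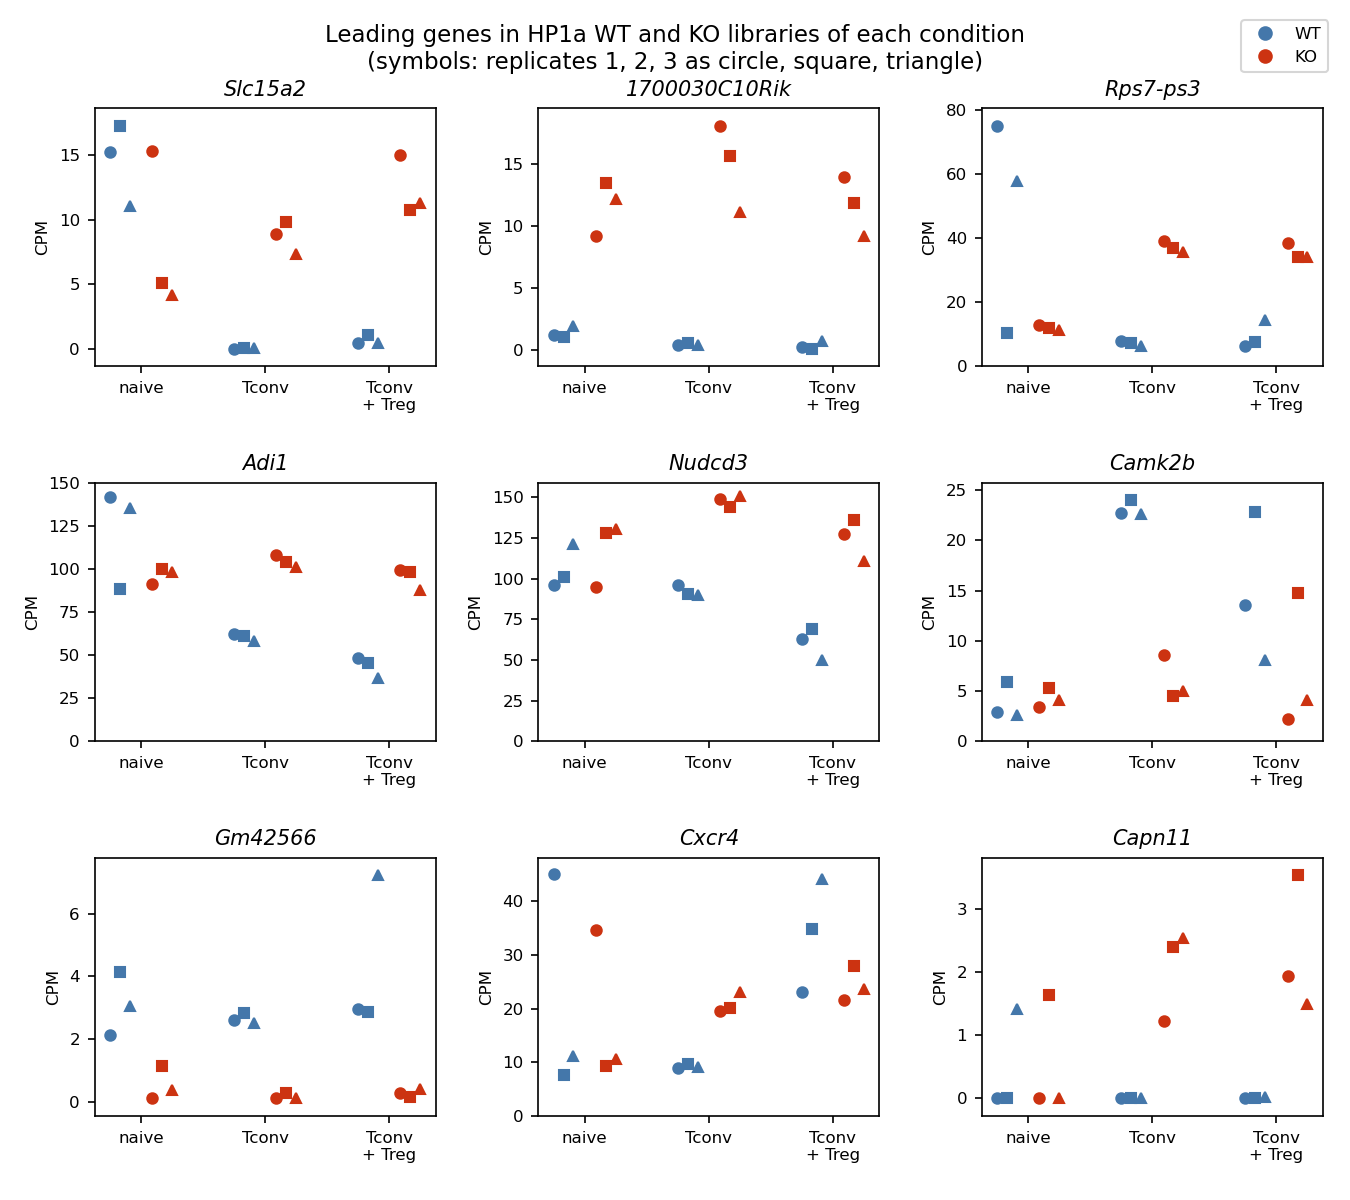
Level in CPM of 9 genes in the HP1a WT (blue) and KO (red) libraries of naive cells, Tconv and Tconv with Treg, replicates 1 to 3 as circle, square and triangle. 1700030C10Rik and Gm42566 separate the genotypes in all 3 conditions, Slc15a2, Rps7-ps3, Adi1, Nudcd3 and Capn11 in the grafted cells, and Camk2b and Cxcr4 in Tconv without Treg.

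The KO effect without Treg was set against the KO effect with Treg in a test of the difference, which called 24 of 17205 genes (0.139%), 14 with a negative and 10 with a positive difference. Except for Slc15a2, none of the 24 was called in Tconv without Treg. Of the 22 described here, the other 21 ran there from -1.10 (Spp1) to 0.97 (Gprc5a). The number of calls rested on single libraries: it was 9, 10 and 11 without WT Tconv replicate 3, KO Tconv replicate 3 and KO Tconv replicate 2, 13 to 15 without WT Tconv replicate 1 or 2 or KO with Treg replicate 1 or 3, and 50, 80 and 91 without KO replicate 2, WT replicate 2 and WT replicate 3 of the libraries with Treg.

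Anxa1, the gene of annexin A1, which dampens inflammation, stood at 169, 178 and 239 CPM in WT and at 144, 90.8 and 93.1 CPM in KO without Treg, but at 5.03, 8.21 and 4.78 CPM in WT and at 50.7, 32.5 and 46.4 CPM in KO with Treg. The KO libraries thus lay below WT without Treg and above WT with it, a difference of -3.68 ± 0.37 (adjusted p = 0.0051). Slc2a3 showed the same pattern, at 210 to 243 CPM in WT and 170 to 190 CPM in KO without Treg and at 25.7 to 32.9 and 67.9 to 85.7 CPM with Treg (-1.68 ± 0.18). Cish, an inhibitor of cytokine signalling, was close to even without Treg, at 410 ± 57.4 CPM in WT and 407 ± 12.3 CPM in KO (SD, n = 3), and differed with Treg, at 72.4 ± 5.87 and 170 ± 2.83 CPM (-1.23 ± 0.16, adjusted p = 0.012). L1cam (-1.46 ± 0.18), an adhesion molecule, and Rrad (-1.62 ± 0.20), a small GTPase, had differences of the same sign.

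Genes with a positive difference were higher in WT than in KO in the libraries with Treg, Slc15a2 apart. Lag3, an inhibitory receptor, stood at 0.871, 1.01 and 0.510 CPM in WT and at 0.644, 0.623 and 0.699 CPM in KO without Treg, and at 47.1, 55.1 and 67.5 CPM in WT and 6.44, 3.48 and 8.14 CPM in KO with Treg (2.95 ± 0.46, adjusted p = 0.037). Spp1, osteopontin, stood at 1.42 to 2.26 CPM in WT and 0.715 to 0.882 CPM in KO without Treg and at 228 to 337 and 1.64 to 7.75 CPM with Treg (4.89 ± 0.64). Eea1 (2.05), Mmd (1.78) and Igf1r (2.19) also had positive differences. Marker levels differed between the genotypes in the libraries with Treg. The KO sums lay above the WT sums for neutrophil (284 to 511 against 5.64 to 44.4 CPM), erythroid (113 to 721 against 4.11 to 49.96 CPM) and macrophage markers (87.3 to 610.0 against 48.5 to 76.9 CPM), and below them for Treg markers (60.0 to 160 against 227 to 364 CPM). MHC class II sums overlapped, at 128 to 823 CPM in KO and 153 to 457 CPM in WT. Among the Treg markers, Foxp3 overlapped, at 13.5, 69.2 and 18.1 CPM in WT and at 8.57, 34.8 and 16.3 CPM in KO. Lrrc32 overlapped too, while Gpr83 was lower in every KO library. The part of other cells' RNA in the differences was not tested.

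**Figure D5:**
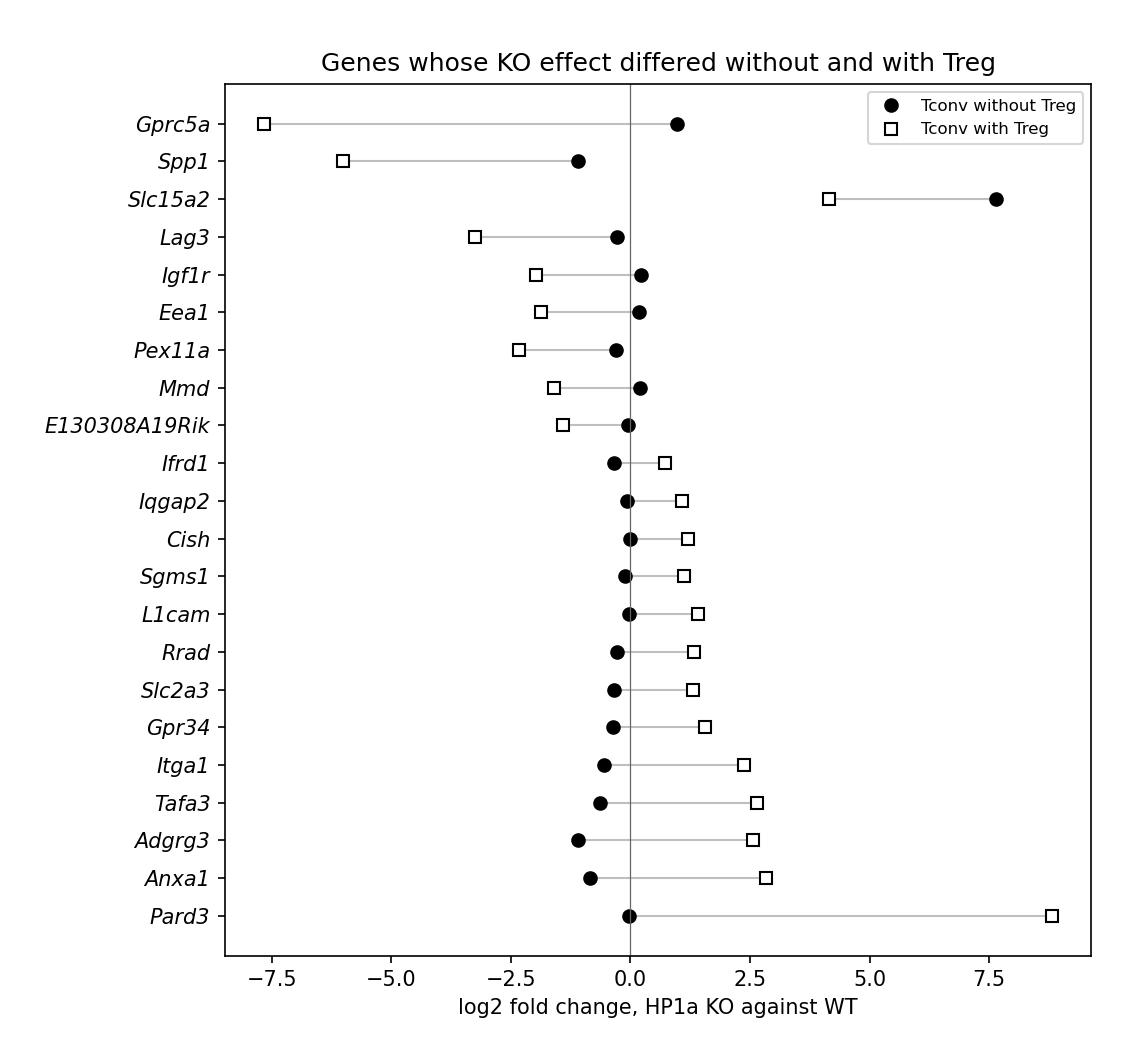
Fitted log2 fold change of HP1a KO against WT for 22 genes whose KO effect differed between Tconv without Treg (filled circles) and with Treg (open squares). Without Treg the points lie between -1.10 and 0.97, with Slc15a2 the exception at 7.64. Pard3 had 0 counts in all 3 WT libraries with Treg, and Gprc5a had counts in 1 of 3 KO libraries with Treg, so their fitted values depend on the prior count and are not measured sizes.

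Set against deletion of HP1g with Cd4-cre, the KO effect in Tconv differed for 2 of 16979 genes (0.0118%). Rps7-ps3 had a log2 fold change of 2.37 in the HP1a line and -0.02 in the HP1g line, where all 6 Tconv libraries lay between 5.05 and 5.99 CPM (difference 2.40 ± 0.17, adjusted p = 0.00018). Trav6d-7 was at 0 in the HP1a KO libraries and at 2.63, 5.31 and 3.46 CPM in the HP1g KO libraries (adjusted p = 0.0011), with the limit on identical copies given above. Both were called whichever of the 12 libraries was left out. For Adi1 and Nudcd3 the difference between the lines was 0.99 (adjusted p = 0.102) and 0.84 (adjusted p = 0.017, below the fold threshold). For Ifng, the HP1g line stood at 433, 553 and 564 CPM in WT and 469, 568 and 445 CPM in KO, with overlap.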

How the data were processed

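RNA was amplified from sorted cells with a SMART-Seq kit that does not mark strand. The authors trimmed the reads, aligned them with STAR to GRCm39 and quantified them with Salmon. The deposited values are estimated counts per gene, not normalised, for 56748 genes. Salmon divides reads between similar genes (82.9% of values were whole, tolerance 1e-06), so single counts of copied or overlapping genes are uncertain. The authors left out 1 HP1g library for its quality, so 35 of 36 were used.

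Counts were rounded and tested with edgeR 4.0.16 (R 4.3.3, limma 3.58.1, with TMM, filterByExpr and a robust quasi-likelihood fit) on the 6 libraries. Each edgeR SE was worked back from the test, as the absolute log2 fold change divided by the square root of its F statistic. Differences of KO effects were interaction terms over 12 libraries. DESeq2 1.42.0, the authors' tool, was an alternative. The Benjamini-Hochberg adjustment ran over all tested genes. Fitted folds of genes at 0 in a group depend on the prior count, so bounds use 3 counts over the group as a floor. Ratio intervals are exact binomial and cover counting error only. Scripts were tested on simulated counts. The alternatives were other size factors, filters, models and left-out libraries.

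Samples were grouped by their titles. Named genes are the HP1 genes, all called genes, those at an adjusted p under 0.05 without the fold threshold, leading DESeq2 calls with a mean of at least 5 CPM, the members of each list with the smallest p, T cell genes the study discusses and genes near Cbx5. List members beyond these, parent genes of copies, Sirpa and the genes of the Treg comparison were chosen after their values were seen. The members and lists were chosen with earlier results of these data known. Positions come from GENCODE M39, which holds 56017 of the genes. A few genes are not reported here.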

Additional observations from a re-analysis of the deposited data

Results flagged for a closer look

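The KO effect differed between groups, by the test of the difference itself (edgeR interaction term, adjusted p under 0.05 and an absolute difference above 1 on the log2 scale), for the 25 results given here. Between Tconv and naive cells it differed for Slc15a2 (8.46). Between the HP1a and HP1g lines it differed for Rps7-ps3 (2.40) and Trav6d-7 (-10.6), and the second shares all its bases with Trav6n-7.

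Between Tconv without and with Treg, the KO effect was lower without Treg for Pard3 (-8.82), Anxa1 (-3.68), Adgrg3 (-3.67), Tafa3 (-3.29), Itga1 (-2.95), Gpr34 (-1.94), Slc2a3 (-1.68), Rrad (-1.62), L1cam (-1.46), Sgms1 (-1.24), Cish (-1.23), Iqgap2 (-1.17) and Ifrd1 (-1.08). It was higher without Treg for E130308A19Rik (1.36), Mmd (1.78), Pex11a (2.02), Eea1 (2.05), Igf1r (2.19), Lag3 (2.95), Slc15a2 (3.48), Spp1 (4.89) and Gprc5a (8.60). The values of Pard3, Gprc5a and Trav6d-7 rest on groups at or near 0 counts. Pard3, Anxa1, Slc2a3, Rrad, L1cam, Mmd and Eea1 were called whichever of the 12 libraries was left out, but neither they nor the other differences from Tconv with Treg were called with the replicate number as a block. Slc15a2 was called in 3 of 12 such fits, Lag3 in 5 of 12 and Spp1 in 9 of 12.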

How the results depend on the processing

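The number of genes called between KO and WT Tconv was 16. It was 16 with RLE size factors, 19 without the fold threshold and 13 with TRAV copies summed. It was 207 with DESeq2, 35 without a filter on low counts, 5 when genes averaging under 5 CPM were dropped, 10 with glmTreat against 0.5 and 5 in a fit over all 18 libraries of the HP1a line. Leaving out 1 library gave 4 to 22, and 94 to 295 for the DESeq2 count. For the KO effect in Tconv minus naive cells (1 gene), DESeq2 gave 69, no filter 5 and leaving out 1 library 0 to 6. For Tconv minus Tconv with Treg (24), they gave 356, 65 and 9 to 91. For the HP1a minus the HP1g line (2), they gave 142, 6 and 2 to 5. The causes were not tested.

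With the replicate number as a block, edgeR called 30 genes between KO and WT Tconv, 19 for Tconv minus naive cells, 0 for Tconv minus Tconv with Treg (1493 at an unadjusted p under 0.05) and 14 for the HP1a minus the HP1g line. Same-numbered KO and WT libraries had correlations of their deviations of 0.125, 0.209 and -0.0927, so not every pair exceeded 0.1, and the samples share only a number. KO replicate 3 did not correlate best with its own number. Nor did KO replicate 1, at 0.125 with WT replicate 1 and 0.126 with WT replicate 3.

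Summing the TRAV copies turned Trav6d-7 to 0.37. Leaving out 1 library changed the sign of 11 uncalled genes named here, over ranges of -0.0934 to 0.0268 for Cbx1, -0.0561 to 0.18 for Xlr4a, -0.0643 to 0.40 for Cdkn1c, -0.20 to 0.66 for Cd79b, -1.03 to 0.43 for Cd22, -0.805 to 0.063 for Cd79a, -0.0118 to 0.35 for Nr4a1, -0.0678 to 1.85 for Ccr6, -0.79 to 2.68 for Il17a, -0.22 to 0.21 for Il2 and -0.10 to 0.37 for Tox. The DESeq2 fits without a library and the summed copies were chosen after seeing the data. At 37029519 to 62700073 counts, 3 counts were 0.0477 to 0.0816 CPM in a single library.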
